A study of Homo sapiens with 31 samples.

Results

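The 10 genes of the BCL2 family followed here, a family which controls the mitochondrial route to apoptosis, were measured in 31 RNA-sequencing libraries. They were picked by symbol, before any filter, and are 10 of the 19221 genes used from the FPKM table (fragments scaled to gene length and library size). BCL2, BCL2L1 and MCL1 encode proteins that hold apoptosis back, BAX and BAK1 encode the effectors, and BCL2L11, BBC3, PMAIP1, BID and BAD encode BH3-only proteins. The libraries came from 2 cell lines that the labels give as ovarian carcinoma, and the study itself raises the origin of C13* as a limit. C13* cells carried a lentiviral control hairpin (C13* shCON, n = 7) or a hairpin against CEBPB (C13* shCEBPB, n = 8), the gene of the transcription factor C/EBPβ. A2780 (n = 8) was the untreated parent line, and A2780 OlaR (n = 8) was derived from it under rising exposure to olaparib, a PARP inhibitor, until it was resistant. All 4 groups were cultured in the same medium with serum. Each group was 1 cell line or 1 derived strain, and the study calls its libraries biological replicates, so the p-values measure the spread between libraries of a line and not between lines. The comparisons ask which members differ after C/EBPβ knockdown in C13* and between the olaparib-resistant line and its parent.

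In a living cell the anti-apoptotic proteins bind the effectors and the BH3-only proteins. When BH3-only proteins are in excess, BAX and BAK1 open pores in the outer mitochondrial membrane, and the released cytochrome c, with APAF1, switches on caspase-9. Ovarian carcinoma cells are known to lean on BCL2L1 and MCL1, and DNA damage is known to raise BAX, BBC3 and PMAIP1 through p53. Much of this control acts on proteins, which these data do not measure.

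CEBPB, the knocked-down gene, ranged from 75.2 to 101 FPKM (median 85.4) in C13* shCON and from 30.2 to 58.7 (median 49.5) in C13* shCEBPB, so the libraries did not overlap and shCEBPB kept 54.9% of the shCON mean. In A2780 it ranged from 85.6 to 111 (median 99.7) and in A2780 OlaR from 97.1 to 127 (median 113), which overlap. Relative depth, read from the steps of low values, differed 1.42-fold at most between libraries. FPKM carry no read totals, so no counting error is given.

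The libraries labelled A2780 OlaR were closer to C13* shCON than to A2780. Over 12967 genes the Pearson correlation of the mean log2(FPKM + 1) of the groups was 0.993 between A2780 OlaR and C13* shCON. It was 0.709 between A2780 OlaR and A2780. The knockdown pair, C13* shCON and C13* shCEBPB, stood at 0.791, as did A2780 OlaR and C13* shCEBPB. A2780 stood at 0.713 with C13* shCON and 0.724 with C13* shCEBPB. These are descriptions across genes. Summed markers also set C13* shCON and A2780 OlaR apart from the other groups. The summed FPKM of 5 squamous markers (KRT5, KRT14, TP63, KRT6A, SFN) was 2523 to 3072 in C13* shCON, 2545 to 3348 in A2780 OlaR, 85.2 to 172 in C13* shCEBPB and 0.416 to 1.87 in A2780, where KRT5 and KRT6A were listed at 0 in every library. The 4 mesenchymal markers (VIM, FN1, CDH2, ZEB1) summed to 32.7 to 38.0, 24.5 to 28.9, 349 to 377 and 857 to 898 FPKM in the same order, the 5 epithelial markers (EPCAM, KRT8, KRT18, KRT7, CDH1) to 939 to 1026, 946 to 1031, 1776 to 2149 and 84.9 to 93.3, and the ovarian markers (PAX8, WT1, MUC16, FOLR1) to 7.66 to 8.80, 7.18 to 8.56, 838 to 968 and 11.5 to 15.5. FOLR1, at a mean of 887 FPKM, made up nearly all of that sum in C13* shCEBPB, while PAX8 averaged 6.1 FPKM in C13* shCON and 0.536 in C13* shCEBPB. Among the defining markers, WT1 and MUC16 averaged under 1 FPKM in each group. EPCAM and CDH1 did so in C13* shCEBPB, and CDH1 and KRT7 did so in A2780. The squamous markers KRT5, KRT14, TP63 and KRT6A each averaged under 1 FPKM in both C13* shCEBPB and A2780. SFN therefore made up nearly all of the squamous sum in C13* shCEBPB. The leukocyte gene PTPRC averaged 85.9 FPKM in the A2780 libraries, with 0 listed for each C13* shCON library, while CD3E, of T cells, was listed at 0 in all libraries. In addition, 1 library titled C13* shCON carries the other cell line in its cell line field. The part of these differences in the results was not tested, and results are given by label. In bulk libraries fewer cells of one kind and less RNA per cell cannot be told apart.

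The promoters of the 3 members that fell at least 2-fold in C13* shCEBPB are shown first, since C/EBPβ acts on DNA. Each is the RefSeq sequence (GRCh38.p14) of the 250 bases before a transcription start, 5′ to 3′ on the strand of the gene. BCL2L1 is at chr20:31723964-31724213 on the minus strand (the first of its 2 starts in that table), BAX at chr19:48954625-48954874 and PMAIP1 at chr18:59899746-59899995, both on the plus strand. Capitals mark CCAAT, or ATTGG where it lies on the other strand, and CACGTG, an E-box that reads the same on both strands. Neither is the C/EBP consensus, which was searched apart from them.
BCL2L1: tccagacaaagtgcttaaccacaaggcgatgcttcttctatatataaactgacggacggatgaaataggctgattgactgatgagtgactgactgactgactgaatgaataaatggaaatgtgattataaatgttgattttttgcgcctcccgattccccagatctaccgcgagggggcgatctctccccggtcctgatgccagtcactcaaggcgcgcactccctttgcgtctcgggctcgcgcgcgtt
BAX: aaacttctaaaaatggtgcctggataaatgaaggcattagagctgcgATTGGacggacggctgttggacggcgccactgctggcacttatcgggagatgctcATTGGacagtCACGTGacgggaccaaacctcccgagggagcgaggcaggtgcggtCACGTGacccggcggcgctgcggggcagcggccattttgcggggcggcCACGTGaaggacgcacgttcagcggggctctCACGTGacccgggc
PMAIP1: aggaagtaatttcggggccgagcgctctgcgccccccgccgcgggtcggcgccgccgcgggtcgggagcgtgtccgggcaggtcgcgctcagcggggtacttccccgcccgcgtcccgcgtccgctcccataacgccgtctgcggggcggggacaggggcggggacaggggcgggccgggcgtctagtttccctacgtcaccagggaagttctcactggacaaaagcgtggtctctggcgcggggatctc
The C/EBP consensus TTNNGNAAT, searched on both strands, was in none of the 15 promoters of the 9 members found in the table, against 9.85% of all 35116 promoters. MCL1 was not among those matched. CCAAT was in 6 of the 15 promoters, those of BAX, BAK1, BCL2L11, BBC3 and BAD, against 32.0% of all promoters. CACGTG was in 4 of the 15 (BAX, BBC3 and BID), against 6.34%. Promoters of 1 gene share bases where its starts lie close. The BAX promoter held 4 copies of CACGTG, though this motif was chosen after the sequences were seen. A match is only a run of letters, and no match says nothing of a factor outside these windows.

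After C/EBPβ knockdown in C13*, 7 of the 9 members that could be tested changed. BID rose, and BCL2L1, MCL1, BAX, BAK1, BBC3 and PMAIP1 fell. BCL2L1, the gene of BCL-xL, fell to 16.1% of its shCON level, PMAIP1 to 34.4% and BAX to 35.2%, the 3 changes of at least 2-fold. BCL2L11 and BAD did not pass the test, and BCL2 was under 1 FPKM in all 15 libraries and was left out by the filter on low values. Of all 12006 genes tested, 84.7% were called, 45.7% lower and 38.9% higher, so 7 called of 9 is close to what genes at large did. For these 7 members no shCEBPB library fell within the range of shCON, which was so for 66% of all genes, and 29.5% of all genes changed at least 2-fold. The median log2 fold change was -0.81 over the 9 members and -0.07 over all genes tested. Calls are from limma on log2(FPKM + 1) with a Benjamini-Hochberg adjusted p under 0.05 over all genes tested.

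In A2780 OlaR against A2780, 9 of 10 members changed. BCL2L1, MCL1, BAX, BAK1, BCL2L11, BID and BAD rose, and BCL2 and BBC3 fell. BCL2L1 was 5.86-fold higher and BCL2 4.93-fold lower, the 2 members past 2-fold. PMAIP1 did not pass the test. Of all 12458 genes tested, 89.8% were called, 40.1% higher and 49.7% lower, and 35.7% changed at least 2-fold. For 7 members the groups did not overlap, against 74.1% of all genes. The median log2 fold change was 0.44 over the members and -0.12 over all genes tested. When libraries were rescaled by median ratios the median of all genes moved to -0.02 and that of the members to 0.54, and all 10 members were then called.

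**Figure D1:**
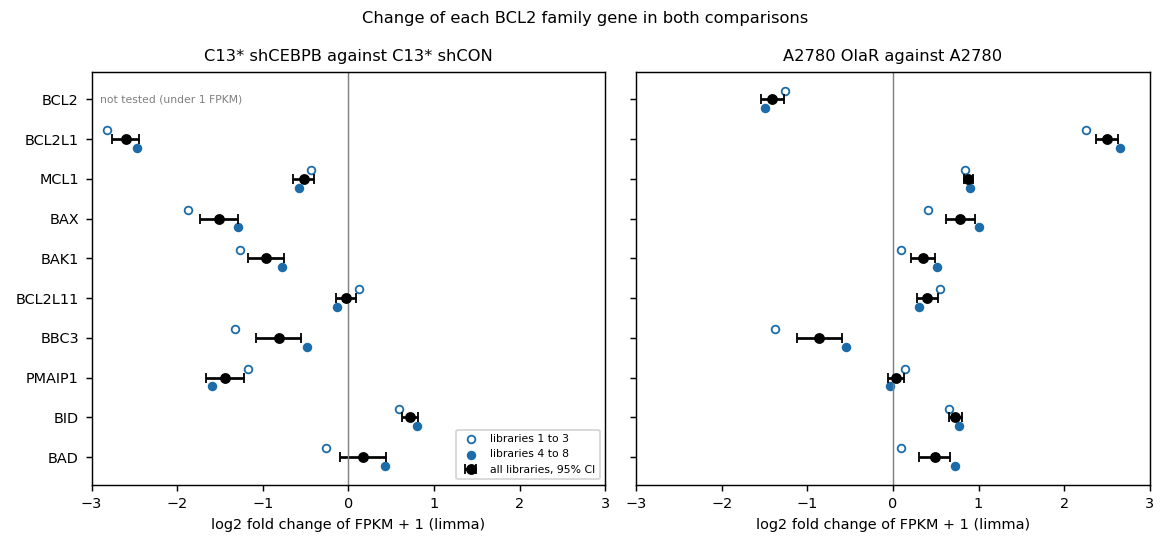
Log2 fold change of each BCL2 family gene in C13* shCEBPB against C13* shCON (left) and A2780 OlaR against A2780 (right), by limma on log2(FPKM + 1). Black points with 95% confidence intervals use all libraries, and open and filled blue points use libraries 1 to 3 and 4 to 8. BCL2L1 lies farthest from 0 in both panels, at -2.60 and 2.50, and BAD lies on either side of 0 in the 2 library ranges of C13*.

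Among the anti-apoptotic members, BCL2L1 had the widest swings. It ranged from 185 to 220.1 FPKM (median 211) in C13* shCON and from 27.2 to 38.6 (median 34.3) in C13* shCEBPB. It ranged from 22.6 to 29.0 (median 27.0) in A2780 and from 133 to 175 (median 160.1) in A2780 OlaR. Every C13* shCON and A2780 OlaR library was above every library of the other 2 groups. Mean levels were 208 ± 13.2 (SD, n = 7), 33.6 ± 4.41 (n = 8), 26.3 ± 1.86 (n = 8) and 155 ± 16.3 FPKM (n = 8) in that order. The log2 fold change was -2.60 (SE 0.07, adjusted p = 3.82e-16, limma) after knockdown and 2.50 (SE 0.06, adjusted p = 1.77e-18) in A2780 OlaR. In the annotation, 1735 exonic bases (41.3%) of BCL2L1 are shared with ABALON, a long noncoding RNA on the other strand, and whether counting used strand is not given in the sources used here.

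MCL1 encodes a short-lived protein that binds BAK1 and BH3-only proteins. It ranged from 127 to 143 FPKM (median 136) in C13* shCON, from 81.4 to 105 (median 94.9) in C13* shCEBPB, from 61.9 to 66.9 (median 65.5) in A2780 and from 119 to 123 (median 120.2) in A2780 OlaR. No groups overlapped, and all 3 steps of the order shCON, OlaR, shCEBPB, A2780 passed the 4-group test. The mean fell from 136 ± 5.58 to 94.4 ± 9.80 after knockdown (log2 fold change -0.52, SE 0.06, adjusted p = 2.00e-07, limma). It was 65.1 ± 1.76 in A2780 and 121 ± 1.81 in A2780 OlaR (0.88, SE 0.03, adjusted p = 2.35e-17).

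BCL2, the founding member, was close to silent outside A2780. It ranged from 0.523 to 0.854 FPKM (median 0.809) in C13* shCON and from 0.257 to 0.560 (median 0.480) in C13* shCEBPB, which overlap. In A2780 it ranged from 2.91 to 3.92 (median 3.68), and in A2780 OlaR from 0.546 to 0.952 (median 0.724), with no overlap. The fall in A2780 OlaR was -1.41 on the log2(FPKM + 1) scale (SE 0.06, adjusted p = 2.90e-14, limma), a scale that understates low genes, and -2.17 with a pseudocount of 0.1. The means of 0.745 ± 0.123 and 0.464 ± 0.0954 in C13* differed by -0.25 on that scale (exact two-sided permutation test, p = 0.000932).

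**Figure D2:**
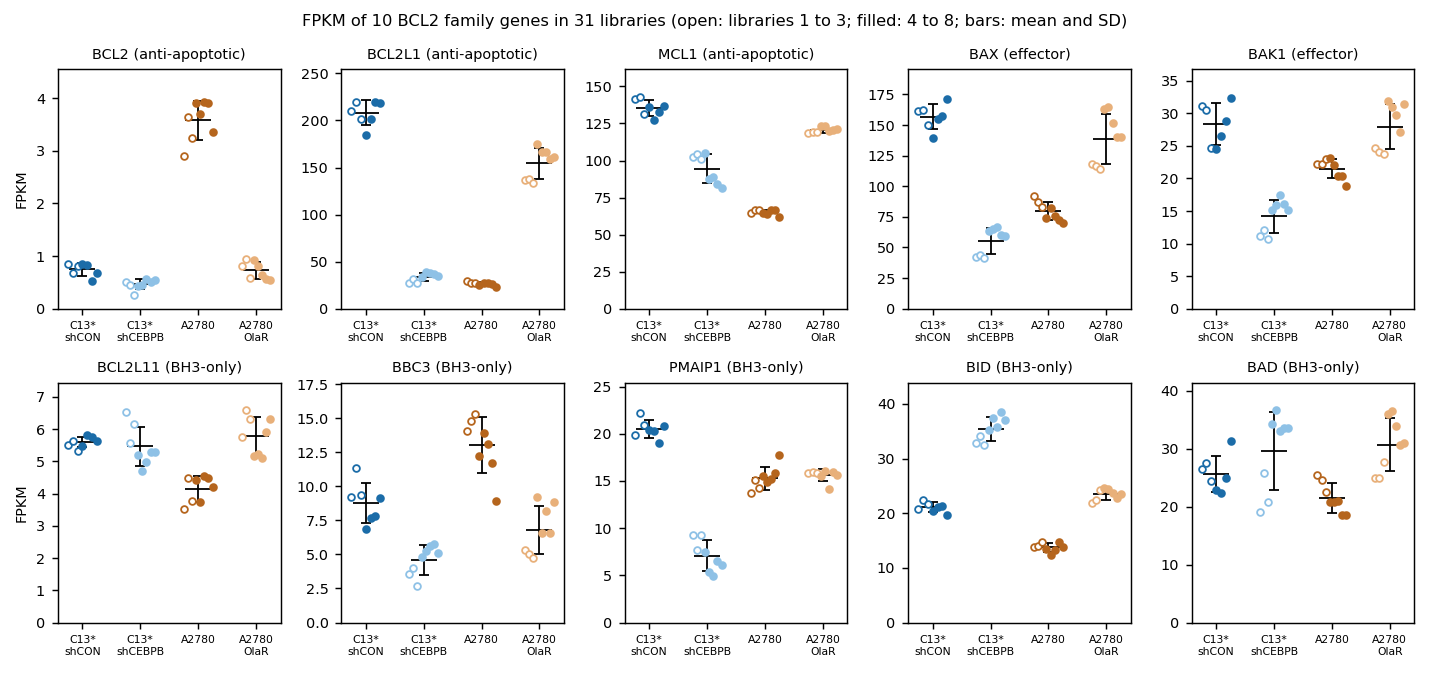
FPKM of the 10 genes in each of the 31 libraries, 1 panel a gene with its own linear axis from 0, open points for libraries 1 to 3, filled points for 4 to 8, and bars for the mean and SD of each group. BCL2L1 is near 208 and 155 FPKM in C13* shCON and A2780 OlaR and near 33.6 and 26.3 in the other groups, and BCL2 is above 1 FPKM in A2780 alone.

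Both effectors fell after knockdown and rose in A2780 OlaR. BAX ranged from 139 to 171 FPKM (median 158) in C13* shCON, from 41.3 to 66.4 (median 59.9) in C13* shCEBPB, from 70.3 to 92.1 (median 78.9) in A2780 and from 114 to 165 (median 140.0) in A2780 OlaR. C13* shCON and A2780 OlaR overlapped and lay above A2780, which lay above C13* shCEBPB. The mean fell from 157 ± 10.2 to 55.2 ± 10.9 after knockdown (log2 fold change -1.51, SE 0.11, adjusted p = 2.20e-10, limma). It was 79.6 ± 7.57 in A2780 and 139 ± 20.5 in A2780 OlaR (0.78, SE 0.08, adjusted p = 2.26e-08), and the change was 0.41 in libraries 1 to 3.

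BAK1, the other pore-forming effector, was the less abundant of the pair in each group. It ranged from 24.5 to 32.4 FPKM (median 28.8) in C13* shCON and from 10.6 to 17.4 (median 15.2) in C13* shCEBPB, with no overlap. It ranged from 18.8 to 23.1 (median 22.2) in A2780 and from 23.8 to 31.9 (median 28.5) in A2780 OlaR, again with no overlap, though the highest A2780 and the lowest A2780 OlaR library were close. The log2 fold changes were -0.96 (SE 0.10, adjusted p = 7.44e-08, limma) and 0.36 (SE 0.07, adjusted p = 5.90e-05). In A2780 OlaR against A2780 the change was 0.10 in libraries 1 to 3 (adjusted p = 0.0260) and 0.51 in libraries 4 to 8 (adjusted p = 6.31e-07).

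The BH3-only members did not move as 1 block. BID, which caspase-8 cleaves to link death receptors to mitochondria, ranged from 19.7 to 22.5 FPKM (median 21.2) in C13* shCON and from 32.5 to 38.5 (median 35.5) in C13* shCEBPB. It ranged from 12.3 to 14.8 (median 13.8) in A2780 and from 21.9 to 24.6 (median 23.6) in A2780 OlaR. Neither comparison overlapped, and BID was the member that rose in both. The log2 fold changes were 0.72 (SE 0.04, adjusted p = 3.53e-11, limma) and 0.73 (SE 0.04, adjusted p = 5.23e-13).

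PMAIP1 encodes NOXA, which binds MCL1. It ranged from 19.0 to 22.2 FPKM (median 20.4) in C13* shCON and from 4.93 to 9.24 (median 6.96) in C13* shCEBPB, with no overlap. The fall was -1.44 (SE 0.11, adjusted p = 4.27e-10, limma). A2780, at 13.7 to 17.7 (median 15.2), and A2780 OlaR, at 14.1 to 16.1 (median 15.9), overlapped, and the log2 fold change of 0.03 had a 95% confidence interval of -0.06 to 0.12 (adjusted p = 0.504). It became 0.13 (adjusted p = 0.00983) with median-ratio scaling, 0.31 (adjusted p = 8.68e-07) with a correction for GC content and length and 0.14 (adjusted p = 0.0144) in libraries 1 to 3.

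BBC3 encodes PUMA, a BH3-only protein that binds all anti-apoptotic members. It ranged from 6.86 to 11.3 FPKM (median 9.10) in C13* shCON and from 2.67 to 5.79 (median 4.93) in C13* shCEBPB, with no overlap. It ranged from 8.89 to 15.3 (median 13.5) in A2780 and from 4.74 to 9.25 (median 6.56) in A2780 OlaR, where 1 A2780 library was below the highest A2780 OlaR library. BBC3 fell in both comparisons, by 0.81 (SE 0.13, adjusted p = 9.60e-06, limma) and 0.86 (SE 0.13, adjusted p = 3.14e-06) on the log2 scale. It was -1.32 and -0.49 in libraries 1 to 3 and 4 to 8 of C13*, and -1.38 and -0.54 in those of A2780. With the correction for GC content and length the change was -1.21 (adjusted p = 7.10e-14) after knockdown and -0.29 (adjusted p = 0.000616) in A2780 OlaR.

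BCL2L11 encodes BIM, which binds and activates the effectors. It ranged from 5.33 to 5.80 FPKM (median 5.62) in C13* shCON and from 4.70 to 6.51 (median 5.29) in C13* shCEBPB, the wider range enclosing the narrower. The log2 fold change was -0.03 with a 95% confidence interval of -0.15 to 0.08 (adjusted p = 0.576, limma), and it was 0.15 (adjusted p = 0.00876) with quantile normalization, 0.12 (adjusted p = 0.142) in libraries 1 to 3 and -0.13 (adjusted p = 0.0402) in libraries 4 to 8. In A2780 it ranged from 3.53 to 4.53 (median 4.31) and in A2780 OlaR from 5.10 to 6.59 (median 5.83), with no overlap, a rise of 0.40 (SE 0.06, adjusted p = 3.14e-06).

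BAD encodes a BH3-only protein that survival kinases hold inactive by phosphorylation. It ranged from 22.3 to 31.3 FPKM (median 24.95) in C13* shCON and from 19.0 to 36.6 (median 33.3) in C13* shCEBPB, which overlap. The log2 fold change was 0.17 with a 95% confidence interval of -0.10 to 0.44 (adjusted p = 0.229, limma), being -0.26 in libraries 1 to 3 (adjusted p = 0.0430) and 0.43 in libraries 4 to 8 (adjusted p = 0.000222). A2780, at 18.5 to 25.4 (median 20.9), and A2780 OlaR, at 24.9 to 36.4 (median 30.8), overlapped slightly, and the rise of 0.49 (SE 0.09, adjusted p = 2.93e-05) was 0.09 (adjusted p = 0.154) in libraries 1 to 3 and 0.91 with the correction for GC content and length. In the annotation, 404 exonic bases (23.7%) of BAD are shared with GPR137 on the other strand.

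For the 7 members whose groups did not overlap after knockdown, the exact two-sided permutation test gave p = 0.000311, and for the 7 in A2780 OlaR against A2780 it gave p = 0.000155, the smallest p these numbers of libraries can give. For BBC3 and BAD in A2780 OlaR, which overlapped, p was 0.000311 and 0.000622. The same exact permutation test gave p = 0.484 for PMAIP1 in A2780 OlaR, and p = 0.529 and 0.2545 for BCL2L11 and BAD after knockdown.

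The position of a library in the library codes moved with several members. Libraries numbered 1 to 3 and 4 to 8 did not overlap for 8 of the 9 members above 1 FPKM in C13* shCEBPB and for 6 of 9 in A2780 OlaR, against 53.4% and 57.2% of all genes above that level. In A2780 this held for 3 of 10 members and in C13* shCON for 1 of 9, against 20.7% and 4.77% of all genes. In C13* shCEBPB the mean in libraries 4 to 8 was 1.56 times that in libraries 1 to 3 for BBC3 and for BAD, 1.48 for BAX, 1.41 for BAK1 and 1.26 for BCL2L1, but 0.693 for PMAIP1. In A2780 OlaR the ratios were 1.56 for BBC3, 1.31 for BAX, 1.30 for BAD, 1.25 for BAK1 and 1.22 for BCL2L1. CEBPB itself was 1.40 times as high in libraries 4 to 8 of C13* shCEBPB. What the numbers stand for is not given in the sources used here, and their part in the results was not tested. Each of the 6 falls and the rise after knockdown passed in libraries 1 to 3 (where 82.2% of all genes were called) and in libraries 4 to 8 (86.3%). So did the 9 changes in A2780 OlaR (90.1% and 90.4% of all genes), except the rise of BAD in libraries 1 to 3.

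Levels were then ordered over the 4 groups in 1 fit. Of the 30 pairs of neighbouring groups, 3 for each member, 15 differed, with an adjusted p under 0.05 and no overlap. Neighbours were set by the order of each member's own means, while the shares of all genes that follow are for fixed pairs. The count of 15 therefore has no like share beside it. Of all genes in this fit, 84.3% were called and 64.5% did not overlap between C13* shCEBPB and C13* shCON, 88% and 73.3% between A2780 OlaR and A2780, 88% and 71% between A2780 and C13* shCEBPB, 87.6% and 76.5% between C13* shCON and A2780, and 84.8% and 61.7% between A2780 OlaR and C13* shCEBPB. C13* shCON and A2780 OlaR were neighbours for BCL2, BCL2L1, MCL1, BAX, BAK1, BCL2L11, BBC3, PMAIP1 and BID. A2780 OlaR was lower than C13* shCON in BCL2L1 by 0.43 on the log2 scale (adjusted p = 1.08e-05, limma), in PMAIP1 by 0.37 (adjusted p = 0.000558) and in MCL1 by 0.17 (adjusted p = 0.00348), with no overlap. BBC3 (-0.34, adjusted p = 0.0458) and BID (0.15, adjusted p = 0.00366) also passed but overlapped. No member differed 2-fold between these 2 groups, and the median size of the difference was 0.18 in the members and 0.12 in all genes, of which 37.7% were called, 15.4% did not overlap and 0.532% were called at 2-fold or more. C13* shCEBPB and A2780 overlapped for BCL2L1 (means of 33.6 and 26.3 FPKM), although the fit called the difference.

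**Figure D3:**
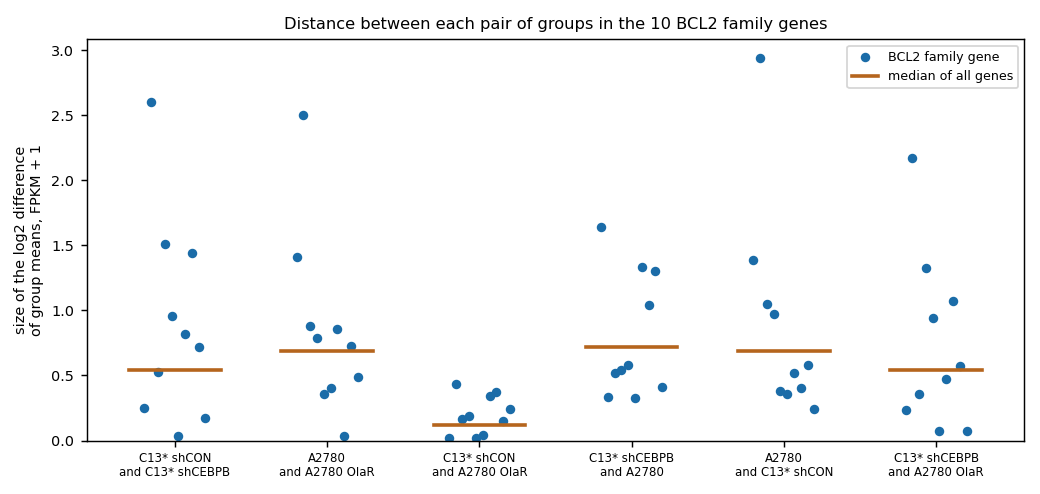
Size of the log2 difference between group means of log2(FPKM + 1) for each of the 10 genes (blue points) and the median over all 12967 genes (brown lines), for the 6 pairs of groups. C13* shCON and A2780 OlaR are the closest pair, with no member past 0.43, and the other pairs reach between 1.64 and 2.94.

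The values after ± are SDs over the 7 or 8 libraries of a group throughout. Summed within each library, the 3 anti-apoptotic members averaged 344 ± 15.9 FPKM in C13* shCON, 128 ± 7.43 in C13* shCEBPB, 95.05 ± 3.23 in A2780 and 276 ± 17.8 in A2780 OlaR. BCL2L1 made up 60.4% ± 1.56 and 55.9% ± 2.36 of that sum in C13* shCON and A2780 OlaR, and MCL1 made up 73.3% ± 4.26 and 68.5% ± 1.051 in C13* shCEBPB and A2780. So the most abundant anti-apoptotic transcript was BCL2L1 in the first pair of groups and MCL1 in the second, in each library. BCL2 was 3.77% ± 0.395 of the sum in A2780 and 0.218% to 0.363% in the means of the other groups.

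The summed effectors fell after knockdown as well, from 185 ± 13.2 to 69.4 ± 13.3 FPKM, and averaged 101 ± 8.59 in A2780 and 167 ± 23.8 in A2780 OlaR. The ratio of the anti-apoptotic to the effector sum was 1.86 ± 0.0702 in C13* shCON and 1.92 ± 0.447 in C13* shCEBPB. The second mean joins libraries that lay apart, since libraries 1 to 3 of C13* shCEBPB, at 2.45 to 2.47, were above the shCON range of 1.75 to 1.96, libraries 5 to 8, at 1.52 to 1.59, were under it, and library 4 was at 1.78. In A2780 the ratio was 0.944 ± 0.0654 and in A2780 OlaR 1.67 ± 0.135, with no overlap. The ratio of BCL2L1 to BAX was 1.33 ± 0.0397, 0.618 ± 0.0601, 0.332 ± 0.0170 and 1.12 ± 0.0562 in C13* shCON, C13* shCEBPB, A2780 and A2780 OlaR, with no groups overlapping. The ratio of MCL1 to PMAIP1 was 6.62 ± 0.331, 13.8 ± 2.43, 4.29 ± 0.381 and 7.74 ± 0.342. The summed BH3-only members averaged 81.6 ± 4.84, 82.1 ± 7.75, 67.7 ± 3.28 and 82.4 ± 6.14 FPKM, while the share of BID in them was 25.9% ± 1.60 in C13* shCON and 43.3% ± 1.90 in C13* shCEBPB. These sums and ratios are descriptions and were not tested.

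**Figure D4:**
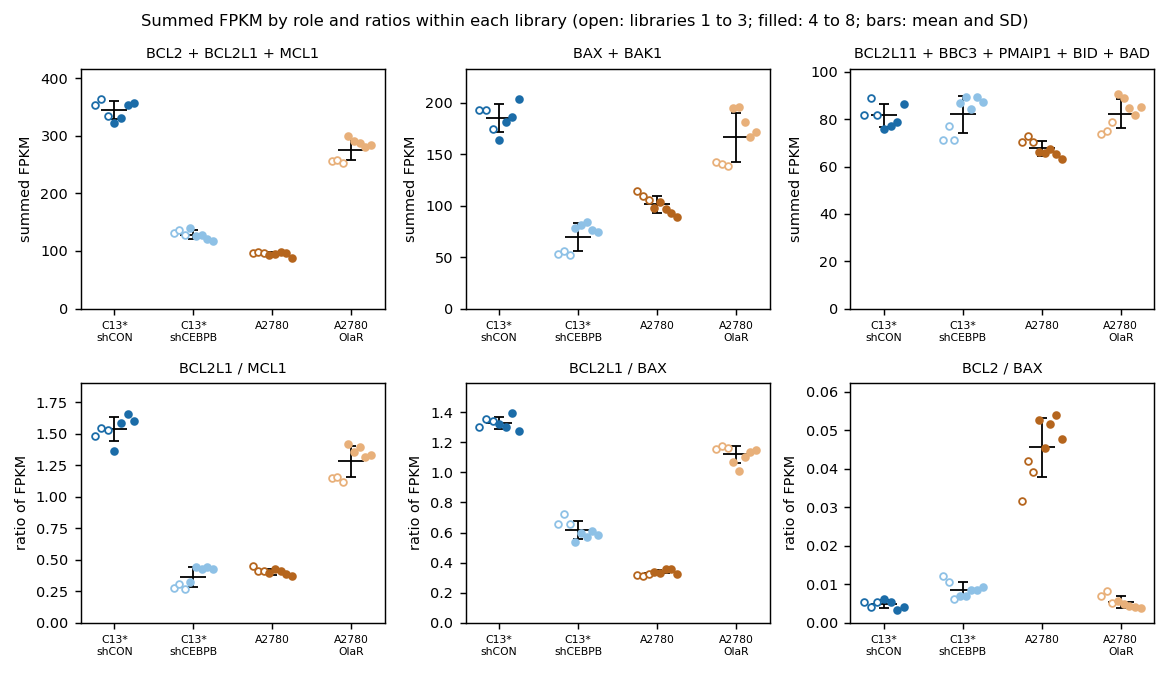
Upper row, FPKM summed over the anti-apoptotic, effector and BH3-only members in each library, and lower row, 3 ratios within each library, with linear axes from 0, open points for libraries 1 to 3, filled points for 4 to 8, and bars for the mean and SD. BCL2L1 over MCL1 is 1.54 and 1.28 in C13* shCON and A2780 OlaR and 0.363 and 0.404 in C13* shCEBPB and A2780.

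Of 13 further BCL2 family genes, 8 could be tested after knockdown, of which 2 rose and 5 fell. BIK, another BH3-only gene, fell from 11.8 ± 1.29 to 4.002 ± 0.711 FPKM (log2 fold change -1.37, SE 0.09) and BNIP3, a gene of mitophagy, from 75.8 ± 2.38 to 32.5 ± 2.56 (-1.20, SE 0.05). HRK rose by 0.46 (SE 0.10) and BOK by 0.21 (SE 0.09, adjusted p = 0.0459, limma), both with overlap, and BOK was -0.11 in libraries 1 to 3 and 0.40 in libraries 4 to 8. In A2780 OlaR 9 could be tested, 3 rose and 5 fell. BMF, a BH3-only gene, fell from 3.92 ± 0.140 to 0.198 ± 0.0649 FPKM and HRK from 7.29 ± 1.02 to 1.71 ± 0.367, while BCL2L12 (0.40) and BCL2L2 (0.25) rose with overlap. BCL2A1, BCL2L10, BCL2L14 and BCL2L15 were left out by the filter in both comparisons.

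Of 16 genes of the mitochondrial route and its inhibitors, 6 rose, 5 fell and 5 did not pass after knockdown. CASP9, the initiator caspase, rose from 7.01 ± 1.02 to 92.6 ± 12.7 FPKM (log2 fold change 3.54, SE 0.09), and CYCS, cytochrome c, from 34.7 ± 1.24 to 54.3 ± 5.96 (0.62, SE 0.06). APAF1, which CASP9 needs, fell from 8.35 ± 0.480 to 3.86 ± 0.4085 (-0.95, SE 0.06). None of these 3 genes overlapped between the groups. In A2780 OlaR 4 rose, 9 fell and 3 did not pass. BIRC5, an apoptosis inhibitor that is also needed in mitosis, rose from 34.8 ± 2.05 to 54.8 ± 3.37 FPKM. XIAP and BIRC3, both genes of apoptosis inhibitors, fell from 23.9 ± 1.11 to 5.78 ± 0.734 and from 15.5 ± 1.56 to 3.20 ± 0.759.

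Among regulators of MCL1 protein, FBXW7, which marks MCL1 for destruction, fell after knockdown from 11.7 ± 0.848 to 3.16 ± 0.428 FPKM (-1.62, SE 0.07), and USP9X, which protects it, rose from 15.2 ± 0.786 to 22.1 ± 2.90 (0.50, SE 0.07). In A2780 OlaR FBXW7 rose from 7.04 ± 0.646 to 10.4 ± 1.17 (0.50, SE 0.06) and USP9X fell from 57.9 ± 1.48 to 15.1 ± 1.42 (-1.87, SE 0.05). Of the 4 genes of that list, which also holds PMAIP1, 1 rose and 3 fell after knockdown, and 1 rose, 1 fell and 2 did not pass in A2780 OlaR. Over all 3 lists, with PMAIP1 left out, 21 of 27 genes tested were called after knockdown (84.7% of all genes) and 23 of 28 in A2780 OlaR (89.8%). The latter were 8 rises and 15 falls, or 13 and 13 with median-ratio scaling.

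**Figure D5:**
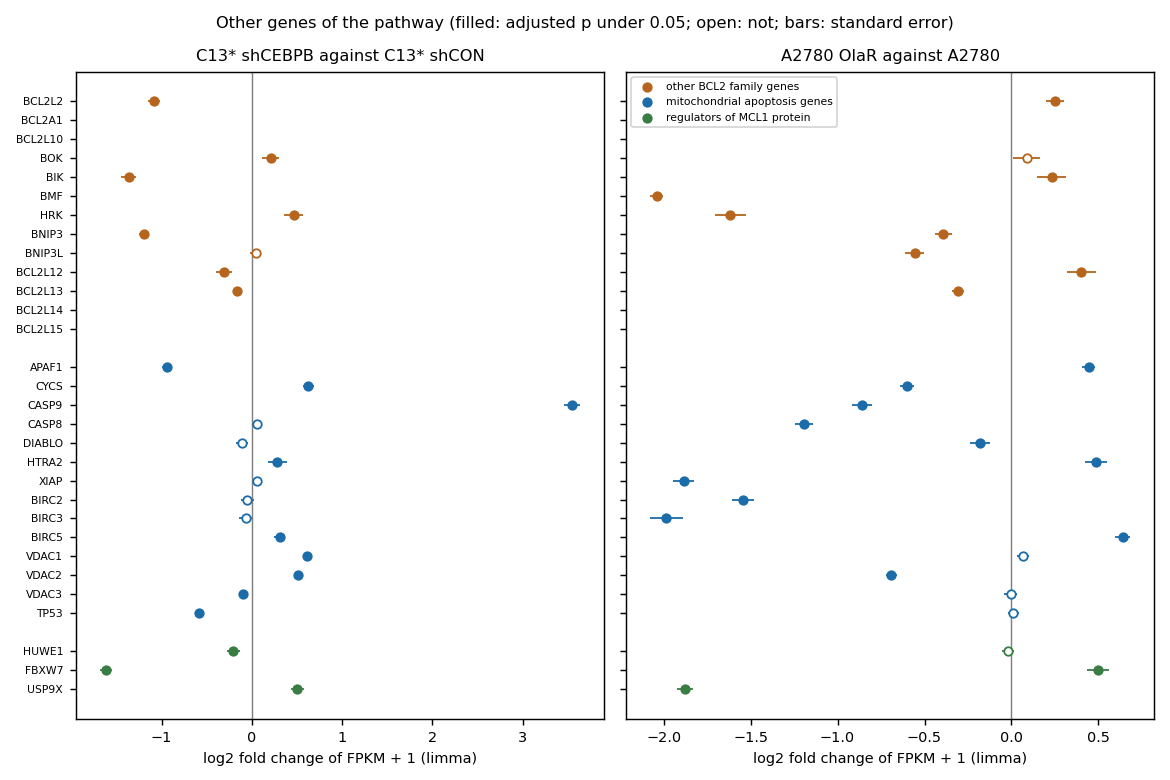
Log2 fold change of other BCL2 family genes (brown), 14 mitochondrial apoptosis genes (blue) and regulators of MCL1 protein (green) in C13* shCEBPB against C13* shCON (left) and A2780 OlaR against A2780 (right), on separate axes, with the standard error as bars and filled points for an adjusted p under 0.05. CASP9 at 3.54 and FBXW7 at -1.62 are the ends of the left panel, and BMF at -2.04 is the lowest point on the right.

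For each member, 12966 other genes were compared by the root mean square difference of log2(FPKM + 1) over the 31 libraries, after centring each gene on its mean. TLDC1 was nearest to BCL2L1 (0.12), with mean levels of 43.2, 5.96, 5.44 and 33.8 FPKM in C13* shCON, C13* shCEBPB, A2780 and A2780 OlaR. SHROOM3 was nearest to BCL2 (0.12), PNP to MCL1 (0.09), KLHDC4 to BAX (0.12) and ARHGAP33 to BAK1 (0.08). MCMBP was nearest to BCL2L11, RAB24 to BBC3, GNPNAT1 to PMAIP1 and RBM14 to BID, with differences of 0.09, 0.17, 0.13 and 0.09. Within the family the closest pair was BAX and BAK1, at 0.26, and BAK1 was the gene ranked 128 in likeness to BAX.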

How the data were processed

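Total RNA of the 31 libraries was extracted with TRIzol. Per the labels the authors used FastQC, TopHat, edgeR and hg38, and the study counted reads per gene with HTSeq and used the exact test of edgeR on counts. The values the authors deposited are FPKM, 1 table of 19225 entries. The tool and annotation behind them and the use of strand are not given in the sources used here. FPKM were used as deposited. Entries with repeated symbols (4) were left out, 1212 genes were at 0 in every library, and no 2 libraries were identical. Groups came from the sample titles. Read counts were not used here, so a log-scale test took the place of a count test.

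A gene was tested where the number of libraries at 1 FPKM or more reached the size of the smaller group, using R 4.3.3 and limma 3.58.1 (eBayes, trend on) with log2(FPKM + 1) as input, two-sided and adjusted over all genes tested. Each comparison used its own 2 groups. Log2 fold changes are on this scale, which understates changes of low genes. Members also had an exact two-sided permutation test of the difference of means. Relative depth came from 871 low genes, of whose 6580 values above 1 step 93.4% lay within 0.05 of a whole step (10% by chance). Positions and exons came from GENCODE 44 (hg38), with 18278 genes (95.1%) matched by symbol. Promoters came from RefSeq (GRCh38.p14). Simulated data were used to check the limma code. Python 3.11.15, numpy 2.4.6, pandas 2.3.3, scipy 1.17.1 and matplotlib 3.10.9 were used.

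The genes named were all 10 members, from each pathway list the 2 largest rises and the 2 largest falls among called genes in each comparison, the gene most like each member, and CEBPB. Of these, 3 are not reported here, though the counts of the lists include them. The members and lists were chosen with earlier results of these data known. The alternatives were other pseudocounts, filters, scalings and thresholds, 1 fit of all groups, the replicate block, a correction for GC content and length, both ranges of library codes and leaving out each library. Library range as a term was added after seeing the data.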

Additional observations from a re-analysis of the deposited data

Results flagged for a closer look

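Each member was looked at for a library far from the others of its group, by the gap to its neighbour against the range of the group. Of 40 such looks 2 met the limit, and chance alone gives about 1 in 20. BCL2 in C13* shCEBPB was 0.257 FPKM in replicate 3, and the next library was at 0.438. PMAIP1 in A2780 OlaR was 14.1 FPKM in replicate 6, and the next library was at 15.5. BCL2 in C13* was under 1 FPKM in all libraries, and the PMAIP1 change in A2780 OlaR stayed between 0.01 and 0.06 on the log2 scale when any 1 library was left out.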

How the results depend on the processing

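Requiring a change of 2-fold or more besides the adjusted p, 3 members of 7 called remained after knockdown and 2 of 9 in A2780 OlaR, and of the other pathway genes 6 of 21 and 7 of 23 remained. With the GC content and length correction, BBC3 (-1.21) and BAK1 (-1.04) were also past 2-fold after knockdown. Leaving out any 1 library gave 7 to 8 members called after knockdown and 9 in each case in A2780 OlaR. The 8th was BAD without C13* shCEBPB replicate 1 (0.25, adjusted p = 0.0419, limma). Libraries with the same replicate number in their titles did not deviate together, so replicate numbers were not taken as a pairing. Their mean correlation was -0.148 over 7 pairs in C13* and -0.233 over 8 pairs in A2780, against 0.0234 and 0.0370 for other pairs. Replicates 6 and 7 of C13* shCON carry library codes 7 and 8, so pairing by library code was not tested in C13*. The replicate block also used the replicate numbers. With the replicate block, 7 and 9 members were called, as without it, and 17 rather than 21 other pathway genes after knockdown (23 in A2780 OlaR). CEBPB in A2780 OlaR passed at 0.16 (adjusted p = 0.0202) and not under the block (adjusted p = 0.0508). Direction reversed for BCL2L11 after knockdown under quantile normalization (0.15), for BAD after knockdown with the GC content and length correction (-0.10, adjusted p = 0.0456) and in libraries 1 to 3 (-0.26), and for CEBPB in A2780 OlaR in libraries 1 to 3 (-0.055, adjusted p = 0.371). The cause was not tested. MCL1 after knockdown was -0.33 with the replicate block and the GC content and length correction together (adjusted p = 8.50e-05). Under median-ratio scaling the other pathway genes in A2780 OlaR split 13 higher and 13 lower. The count of members called was otherwise 7 to 9 after knockdown and 8 to 10 in A2780 OlaR, and the order of levels gave 15 to 21 of 30 differing neighbours.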
